A study of Mus musculus with 2 samples.

Results

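The comparison set white against brown committed adipogenic precursors (CAPs), the cells with the highest Pparg among cultured neonatal preadipocytes, named wCAPs in the white and bCAPs in the brown depot. Its members were the cells that carry these names in the study's tables of barcodes and clusters. They numbered 674 wCAPs and 296 bCAPs, 970 of the 3998 precursor cells labelled in those tables and of the 12270 cells captured. Those tables name only part of the precursors that the study clustered. Each depot gave 1 single-cell library of stromal vascular cells from C57/BL6J mice, aged P0 by the labels and of both sexes. Subcutaneous white tissue was digested for 35 min and interscapular brown tissue for 50 min, and each culture, grown from a pool of 4 pups, reached confluency in 4 days. The labels name no genetic change or drug, and both cultures were kept in serum-containing medium, so the cells are precursors after days in a dish and not cells taken straight from fat. Depot, digestion time, dish and library run together and cannot be told apart.

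White fat stores energy as triglyceride, whereas brown fat burns fuel to make heat, and the interscapular brown depot shares a developmental origin with dorsal skeletal muscle and dermis. Both kinds of adipocyte need PPARG, the nuclear receptor that drives fat cell differentiation, with the C/EBP and EBF factors as its partners. Fibroblast-like cells also keep a record of their position along the body axis in their Hox genes, which lie in 4 clusters numbered from head to tail.

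Levels are unique molecular identifiers (UMIs) of a gene summed over the cells of a group, divided by the group's total UMIs and scaled to 1000000 (CPM). The wCAPs held 19390040 UMIs and the bCAPs 8203009, with medians of 26992.5 and 25900.5 UMIs per cell. With 1 library per depot no test between depots is possible, so all 95% intervals (in parentheses) cover counting error only and say nothing of the spread between animals or cultures. The mitochondrial share had a median of 3.06% in wCAPs and 3.02% in bCAPs. By cell cycle scores 72.1% of wCAPs (68.6 to 75.5%) and 62.2% of bCAPs (56.4 to 67.7%) were in G1. A Y-linked UMI without Xist was seen in 19.1% of wCAPs and 16.9% of bCAPs. The 2 libraries shared 9 barcodes, of which 1 was a wCAP in one and a bCAP in the other.

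The names were set against markers that the study gives for CAPs, of which its text gives Lpl, Igf1 and Ptn for wCAPs. Pparg was highest in wCAPs among the 7 white clusters and in bCAPs among the 7 brown ones, and so was Lpl, the lipase that takes fatty acids from lipoproteins. Fabp4, a fatty acid carrier under PPARG control, was highest in bCAPs but at rank 2 in wCAPs, after the cluster named differentiating wFAPLs. The growth factor Igf1 was at rank 1 in wCAPs and rank 2 in bCAPs. Ptn (pleiotrophin) was at rank 3 of 7 in wCAPs and rank 6 of 7 in bCAPs. It was still higher in wCAPs than in the cluster named wFAPLs, at 2759 and 505 CPM. The same held for bCAPs and the cluster named bFAPLs, at 1773 and 486 CPM. The clusters were made from these same counts, so the ranks describe the groups and test nothing.

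Among 9235 genes with 10 CPM or more in the higher group, 201 (2.18%) were at least 2-fold higher in wCAPs and 198 (2.14%) at least 2-fold higher in bCAPs, together 399 genes (4.32%). The whole counting interval lay beyond 2-fold for 135 of the 201 and 134 of the 198. Over all 9235 genes the median absolute log2 ratio was 0.23 and the median signed ratio 0.01. After 13 of the 14 labelled clusters were thinned to 1697038 UMIs (differentiating wFAPLs held too few), the median absolute log2 ratio between wCAPs and bCAPs was 0.258, with 185 of 3967 genes at 50 CPM or more in either group (4.66%) at least 2-fold apart. The same values between white and brown fibro-adipogenic progenitor-like cells (FAPLs) were 0.184 and 58 of 3806 genes (1.52%). Of these 13, the cluster nearest to wCAPs was early white preadipocytes W2, at 0.159, followed by early brown preadipocytes B1, at 0.174.

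**Figure D1:**
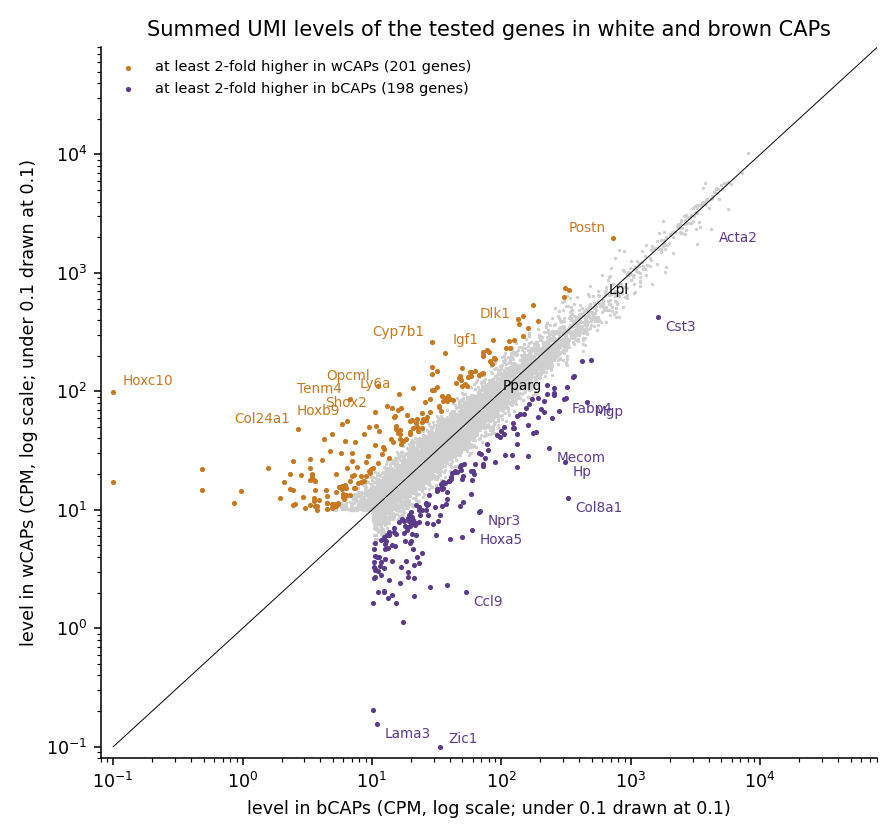
Level of each tested gene in bCAPs (horizontal) and wCAPs (vertical), in CPM on log axes, with genes at least 2-fold apart in orange (201 higher in wCAPs) or purple (198 higher in bCAPs) and the rest in grey. Pparg and Lpl sit on the line of equality, while Hoxc10 lies on the left edge and Zic1 on the lower edge because they had 0 UMIs in bCAPs and wCAPs, respectively.

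Position genes gave the clearest split. Hoxc10 (ENSMUSG00000022484, chromosome 15, 102966796 to 102971893, plus strand, mm10 coordinates as all below) had 1899 UMIs in wCAPs, a level of 97.9 CPM (93.6 to 102), and 0 in bCAPs. With the 0 set to a floor of 3 counts over the group, as for all genes at 0 UMIs here, it was at least 268-fold higher in wCAPs. Zic1 (ENSMUSG00000032368, chromosome 9, 91358058 to 91365810, minus strand), a zinc finger factor of the dorsal midline, was the mirror image, with 0 UMIs in wCAPs and 276 in bCAPs, 33.6 CPM (29.8 to 37.9), at least 217-fold higher in bCAPs against the same floor. Cells with a UMI of Hoxc10 made up 84.1% of wCAPs (81.1 to 86.8%) and 0 of 296 bCAPs, which allows a share of up to 1.01% at the floor of 3. Cells with a UMI of Zic1 made up 50.3% of bCAPs (44.5 to 56.2%) and 0 of 674 wCAPs, which allows up to 0.445% at the same floor. At 10000 UMIs per cell the shares were 56.5% and 26.0%. Glial cells of the same libraries held Hoxc10 in 5.00% of 20 white and Zic1 in 0% of 22 brown cells. These glial cells had medians of 22607 and 17174.5 UMIs per cell.

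Of 39 Hox genes, 20 passed 10 CPM. Of these, 7 were at least 2-fold higher in wCAPs and 6 in bCAPs, beside 2.18% and 2.14% of all genes. The median absolute log2 ratio of the 20 was 1.24, beside 0.23 over all genes. Split by paralog number, a split made after the values were seen, the genes fell as follows. All 5 tested genes of paralog groups 9 and 10 were at least 2-fold higher in wCAPs, namely Hoxa9, Hoxb9, Hoxc9, Hoxa10 and Hoxc10. Hoxb9 had 55.9 CPM in wCAPs and 6.46 in bCAPs, a log2 ratio of 3.11 (2.71 to 3.54), and Hoxa9 had 25.8 CPM in wCAPs and 2.44 in bCAPs, a log2 ratio of 3.40 (2.76 to 4.13). Hoxc9 had 43.6 CPM in wCAPs and 4.88 in bCAPs, a log2 ratio of 3.16 (2.70 to 3.66). Hoxa10 had 17.0 CPM in wCAPs and 0 UMIs in bCAPs, at least 46.5-fold. Among the 15 tested genes of groups 2 to 8, 6 were at least 2-fold higher in bCAPs and 2 in wCAPs. Hoxa5 had 6.70 CPM in wCAPs and 59.2 in bCAPs, a log2 ratio of -3.14 (-3.43 to -2.86), and Hoxa2 of the same cluster had 2.58 CPM in wCAPs and 13.7 in bCAPs, a log2 ratio of -2.40 (-2.92 to -1.91). The 2 exceptions came from the Hoxc cluster, where Hoxc4 had a log2 ratio of 1.29 (1.06 to 1.53) and Hoxc5 of 1.73 (1.41 to 2.07), and all 6 tested Hoxc genes lay above 0. The non-coding RNA Hotairm1, transcribed from the anterior end of the Hoxa cluster, had 11.6 CPM in wCAPs and 50.7 in bCAPs, a log2 ratio of -2.13 (-2.38 to -1.90).

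**Figure D2:**
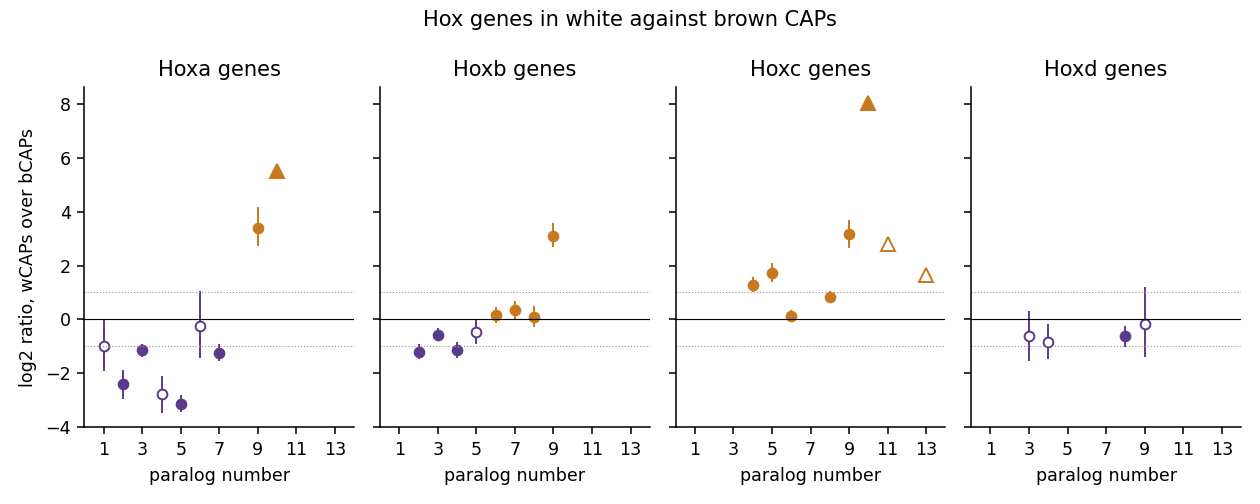
Log2 ratio of wCAPs over bCAPs for Hox genes by cluster (panels) and paralog number (horizontal axis), orange above and purple below 0, with counting intervals as bars; triangles are lower bounds for genes with 0 UMIs in bCAPs, open symbols are genes under 10 CPM, and dotted lines mark 2-fold. Groups 9 and 10 of clusters A, B and C sit at 3.11 or higher, while every drawn Hoxa gene from 1 to 7 lies below 0.

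Promoter sequence was read for 5 genes at the extremes of the comparison. Hoxa10 and Hoxa9 sit in the same cluster as Hoxa5 but go the opposite way, whereas Shox2 and Col8a1 lie on other chromosomes. RefSeq promoter windows (GRCm38.p6, the assembly of mm10) were on hand for 286 of the 399 genes. Each line gives the 250 bases before the annotated start, 5′ to 3′ on the gene's strand, with no exon in it. For Hoxa10, which had 2 annotated starts, the one farthest upstream was taken, and the start used in these cells was not tested. Capitals mark a match to a searched motif. The TATA box was searched as TATAAA on both strands. The CCAAT box, bound by NF-Y, was searched by those letters on both strands, so a match may read ATTGG. The third motif, TGATNNAT, is bound by HOX and PBX proteins together. Hoxa10, Hoxa9 and Shox2 were higher in wCAPs, and Hoxa5 and Col8a1 in bCAPs.
Hoxa10 (chr6:52240855-52241104, minus strand, at least 46.5-fold higher in wCAPs): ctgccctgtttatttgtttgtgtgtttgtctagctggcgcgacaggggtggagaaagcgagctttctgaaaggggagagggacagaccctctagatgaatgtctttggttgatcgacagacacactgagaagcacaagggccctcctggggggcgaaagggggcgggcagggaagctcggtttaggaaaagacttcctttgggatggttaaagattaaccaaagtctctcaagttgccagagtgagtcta
Hoxa9 (chr6:52227371-52227620, minus strand, log2 ratio 3.40): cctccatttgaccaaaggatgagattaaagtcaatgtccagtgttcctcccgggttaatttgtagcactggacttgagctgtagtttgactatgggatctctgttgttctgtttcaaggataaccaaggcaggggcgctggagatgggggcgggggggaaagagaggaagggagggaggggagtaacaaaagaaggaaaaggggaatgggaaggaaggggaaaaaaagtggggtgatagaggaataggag
Shox2 (chr3:66981772-66982021, minus strand, log2 ratio 2.66): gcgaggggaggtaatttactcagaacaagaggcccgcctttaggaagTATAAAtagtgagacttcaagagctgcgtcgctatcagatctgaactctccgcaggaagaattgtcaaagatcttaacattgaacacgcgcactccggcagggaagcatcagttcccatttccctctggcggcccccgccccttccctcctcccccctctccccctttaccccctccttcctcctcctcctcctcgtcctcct
Hoxa5 (chr6:52204588-52204837, minus strand, log2 ratio -3.14): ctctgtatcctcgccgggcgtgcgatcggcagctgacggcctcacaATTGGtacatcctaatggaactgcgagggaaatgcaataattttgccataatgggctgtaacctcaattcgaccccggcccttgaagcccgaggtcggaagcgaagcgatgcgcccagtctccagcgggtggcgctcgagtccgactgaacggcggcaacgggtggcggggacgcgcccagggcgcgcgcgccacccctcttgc
Col8a1 (chr16:57754738-57754987, minus strand, log2 ratio -4.70): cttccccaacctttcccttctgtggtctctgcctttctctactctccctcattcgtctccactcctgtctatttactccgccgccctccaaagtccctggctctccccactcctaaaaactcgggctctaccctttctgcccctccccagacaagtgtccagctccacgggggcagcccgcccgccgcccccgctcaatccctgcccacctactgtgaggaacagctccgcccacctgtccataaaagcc
The window of Hoxa5 held 28 CG pairs. Those of Hoxa9, Hoxa10, Shox2 and Col8a1 held 3, 7, 11 and 10, and the median over all 32851 windows was 6. TATAAA was found in Shox2 alone of the 5, and in 12.4% of all windows. A CCAAT box was found in Hoxa5 alone, and in 33.8% of all windows. TGATNNAT was in none of the 5 and in 7.68% of all windows. A match describes these letters only, and the lack of one says nothing of the factor.

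Other patterning factors split as well. Of 25 tested, 3 were at least 2-fold higher in wCAPs and 4 in bCAPs, beside 2.18% and 2.14% of all genes. The 25 had a median absolute log2 ratio of 0.72. In wCAPs, Shox2, a short stature homeobox factor of the limb skeleton, had 66.3 CPM in wCAPs and 10.5 in bCAPs, a log2 ratio of 2.66 (2.35 to 2.99). Emx2, a homeobox factor of urogenital and forebrain patterning, had 31.6 CPM in wCAPs and 4.75 in bCAPs, a log2 ratio of 2.73 (2.27 to 3.24). Osr1, which marks early limb and lateral mesoderm, had a log2 ratio of 1.35 (1.07 to 1.64). In bCAPs, the forkhead factor Foxc1 had 3.56 CPM in wCAPs and 23.3 in bCAPs, a log2 ratio of -2.71 (-3.13 to -2.31). The LIM homeobox factor Lhx8, known from brown preadipocytes, had a log2 ratio of -1.35 (-1.67 to -1.03). Prrx1, a general factor of limb and trunk mesenchyme, was high in both, at 698 and 555 CPM. Tbx15 had 196 CPM in wCAPs and 101 in bCAPs, a log2 ratio of 0.96 (0.85 to 1.07), just short of 2-fold.

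Pparg, the master factor of fat cells, was nearly equal in both groups. Pparg (ENSMUSG00000000440, chromosome 6, 115360951 to 115490399, plus strand) stood at 92.5 (wCAPs, 88.3 to 96.9) and 92.8 CPM (bCAPs, 86.3 to 99.6). Its log2 ratio had a counting interval of -0.13 to 0.12. Lpl was at 589 and 611 CPM, and Ebf1 at 1245 and 1218. Of 41 tested adipogenic transcription factors, 1 was at least 2-fold higher in wCAPs and 2 in bCAPs, beside 2.18% and 2.14% of all genes. The list's median log2 ratio was 0.07 and its median absolute ratio 0.31, with 18 intervals above and 10 below 0. The exception on the white side was Glis1, a zinc finger factor known for reprogramming, with 69.1 CPM in wCAPs and a log2 ratio of 2.11 (1.85 to 2.38). On the brown side Mecom, a zinc finger repressor also named Evi1, had 33.1 CPM in wCAPs and 234 in bCAPs, a log2 ratio of -2.82 (-2.95 to -2.69). Ebf2, the factor that selects brown over other mesenchymal fates, had 108 CPM in wCAPs and 321 in bCAPs, a log2 ratio of -1.57 (-1.66 to -1.49). Cebpa reached 34.7 and 61.2 CPM, whereas Cebpb, an early C/EBP factor, went the other way with 188 and 107, both short of 2-fold.

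Thermogenic genes were mostly too low to compare. Of 33 listed, 12 passed 10 CPM, and 11 had 0 UMIs in wCAPs and 7 in bCAPs. Zic1, Ebf2 and Lhx8 were the 3 at least 2-fold higher in bCAPs, where 2.14% of all genes were. Prdm16, a coregulator of the brown fate, had 18.4 CPM in wCAPs and 14.4 in bCAPs, a log2 ratio of 0.35 (0.05 to 0.66). Ppargc1a, the coactivator of mitochondrial genes, had 2.17 and 5.24 CPM.

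Lipid handling genes lay on both sides of equality. Of 33 tested, none was at least 2-fold higher in wCAPs and 2 in bCAPs, beside 2.18% and 2.14% of all genes. The 33 had a median ratio of -0.03 and a median absolute ratio of 0.26, against 0.23 over all genes. The interval lay above 0 for 10 and below 0 for 12 of them. The 2 were Fabp4, with 85.9 CPM in wCAPs and 302 in bCAPs, a log2 ratio of -1.81 (-1.90 to -1.72), and Apoe, the lipoprotein ligand, with 107 CPM in wCAPs and 255 in bCAPs, a log2 ratio of -1.25 (-1.34 to -1.16). Fabp4 had a UMI in 55.0% of wCAPs and 86.1% of bCAPs, against 5.00% and 18.2% of glial cells. Myeloid cells, which also use Fabp4, held it in 64.3% and 66.7%. The 8 myeloid markers summed to 7.17 CPM in wCAPs and 10.7 in bCAPs, and their part in the Fabp4 difference was not tested. Late adipocyte markers stayed low, with Plin1 at 0.98 and 0.731 CPM. The 24 tested genes of cholesterol synthesis had none at 2-fold and a median of -0.26, and the interval lay below 0 for 17 and above 0 for 1 of them.

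**Figure D3:**
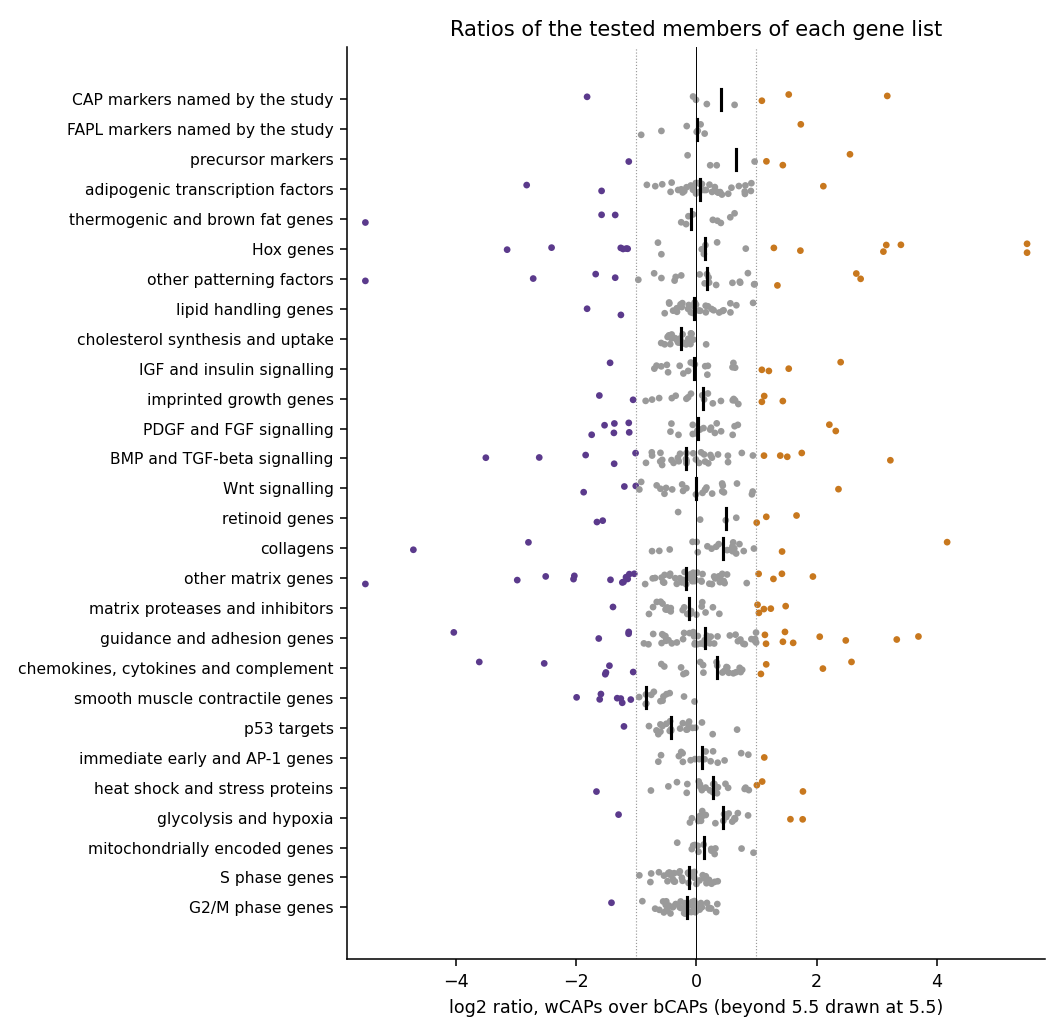
Log2 ratio of wCAPs over bCAPs for the tested members of each gene list (points; orange at least 2-fold higher in wCAPs, purple in bCAPs, grey between), with the list median as a black bar and 2-fold as dotted lines. No cholesterol gene reaches 2-fold though most lie left of 0, the Hox list reaches far to both sides, and the contractile list has no point right of 0.

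Several IGF genes and precursor markers were higher in wCAPs. Igf1, a hormone-like growth factor, had 223 CPM in wCAPs and 76.9 in bCAPs, a log2 ratio of 1.54 (1.42 to 1.66). Igf2, its imprinted fetal counterpart, had 341 CPM in wCAPs and 160.2 in bCAPs, a log2 ratio of 1.09 (1.01 to 1.18). Among binding proteins Igfbp6, which prefers IGF2, had 50.2 CPM in wCAPs and 9.51 in bCAPs, a log2 ratio of 2.40 (2.07 to 2.75), and Igfbp3 a log2 ratio of 1.21 (1.11 to 1.31), while Igfbp4 was higher in bCAPs with 135 CPM in wCAPs and 365 in bCAPs, a log2 ratio of -1.43 (-1.51 to -1.36). In all, 22 genes of the list were tested, with a median of -0.04. Of these, 4 were at least 2-fold higher in wCAPs and 1 in bCAPs, beside 2.18% and 2.14% of all genes. The receptors Igf1r (242 and 218 CPM) and Insr (50.7 and 33.4 CPM) were within 2-fold. Ghr, the growth hormone receptor, which no list held, had 540.0 CPM in wCAPs and 174 in bCAPs, a log2 ratio of 1.63 (1.55 to 1.71).

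Dlk1, the imprinted precursor marker also called Pref-1, had 369 CPM in wCAPs and 136 in bCAPs, a log2 ratio of 1.44 (1.35 to 1.53). Cdkn1c, an imprinted brake on the cell cycle, had a log2 ratio of 1.13 (1.01 to 1.25), and with Igf2 these were the 3 imprinted growth genes at least 2-fold higher in wCAPs. Zim1 and Peg10 were the 2 at least 2-fold higher in bCAPs, at -1.61 (-2.01 to -1.21) and -1.05 (-1.31 to -0.78). The imprinted list had 22 tested genes, and over all genes 2.18% and 2.14% were so in wCAPs and bCAPs. H19, which is made next to Igf2 from the other parental allele, was nearly equal at 683 and 637 CPM. Ly6a, the Sca-1 antigen of adult stromal precursors, had 94.6 CPM in wCAPs and 16.1 in bCAPs, a log2 ratio of 2.56 (2.30 to 2.82), although reads of the Ly6 family can be lost or split between its similar copies. Thy1, or CD90, had a log2 ratio of 1.17 (0.95 to 1.39). Pdgfra and Pdgfrb, the receptors shared by all precursors, had 0.34 and 0.23. Eng (endoglin) went the other way, at -1.12 (-1.35 to -0.89).

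Signalling genes differed in both directions. Of 40 tested BMP and TGF-beta genes, 5 were at least 2-fold higher in wCAPs and 5 in bCAPs, where 2.18% and 2.14% of all genes were, and the list's median was -0.16. Among BMP-type ligands, Gdf10 was white, with 40.0 CPM in wCAPs and 4.27 in bCAPs, a log2 ratio of 3.23 (2.74 to 3.76), whereas Bmp4, a ligand for early fat commitment, was brown, with 1.86 CPM in wCAPs and 21.0 in bCAPs, a log2 ratio of -3.50 (-4.06 to -2.97). Bmp5 was brown too, at -2.61 (-3.04 to -2.19). The antagonist Fst (follistatin), which traps activin, was higher in bCAPs, with 87.6 CPM in wCAPs and 313 in bCAPs, a log2 ratio of -1.84 (-1.93 to -1.75). Among the tested receptors of this list Bmpr1b alone passed 2-fold, at 1.40 (1.22 to 1.58), while Bmpr1a and Tgfbr1 stood at 0.20 and 0.24. The BMP target genes Id1, Id2, Id3 and Id4 had ratios of -0.57, -0.38, -0.73 and -0.57, all toward bCAPs and within 2-fold.

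In the Wnt list, 27 genes were tested. Of these, 1 was at least 2-fold higher in wCAPs and 3 in bCAPs, beside 2.18% and 2.14% of all genes. Lgr4, a receptor for R-spondins, had 107 CPM in wCAPs and 20.7 in bCAPs, a log2 ratio of 2.36 (2.14 to 2.60). Its ligand Rspo2 had 29.2 CPM in wCAPs and 107 in bCAPs, a log2 ratio of -1.87 (-2.03 to -1.72), and Rspo3, within 2-fold, 92.7 and 175 CPM. The receptor was thus higher in one depot's CAPs and the ligands in the other's. The Wnt inhibitor Sfrp2 was at 771 and 482 CPM and its relative Sfrp1 at 684 and 1079. The list of PDGF and FGF signalling had 25 tested genes and a median of 0.02. Of the 25, 2 were at least 2-fold higher in wCAPs and 6 in bCAPs, beside 2.18% and 2.14% of all genes. Among growth factors, Kitl (stem cell factor) had 149 CPM in wCAPs and 32.1 in bCAPs, a log2 ratio of 2.21 (2.03 to 2.40), and Fgf10, a mesenchymal signal to epithelium, 37.1 CPM in wCAPs and 7.44 in bCAPs, a log2 ratio of 2.32 (1.94 to 2.72). The vessel factor Angpt1 was higher in bCAPs, with 17.7 CPM in wCAPs and 59.0 in bCAPs, a log2 ratio of -1.74 (-1.94 to -1.54), as were Angpt2 and Vegfc, at -1.37 (-1.66 to -1.08) and -1.12 (-1.33 to -0.91). Vegfa was at 89.8 and 55.6 CPM. In the retinoid list, 3 of 9 tested genes were at least 2-fold higher in wCAPs and 2 in bCAPs, beside 2.18% and 2.14% of all genes. Among them were Dhrs3 at 1.16 and Rarres2 at 1.01 toward wCAPs, and Crabp1 at -1.55 (-1.73 to -1.38) and Rbp4 at -1.65 toward bCAPs.

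Single matrix genes differed widely while the bulk collagens did not. Col8a1 (ENSMUSG00000068196, chromosome 16, 57624258 to 57754737, minus strand), a short-chain network collagen, had 12.5 CPM in wCAPs and 325 in bCAPs, a log2 ratio of -4.70 (-4.90 to -4.51). A UMI of it was present in 13.5% of wCAPs and 78.7% of bCAPs, and in 36.4% of brown glial cells. The opposite extreme was Col24a1, a minor fibrillar collagen, with 48.3 CPM in wCAPs and 2.68 in bCAPs, a log2 ratio of 4.17 (3.56 to 4.85). Fibril collagens were mildly higher in wCAPs, with Col1a1 at 5187 and 3633 CPM and Col3a1 at 2152 and 1661. Of 24 tested collagens 2 were at least 2-fold higher each way, beside 2.18% (wCAPs) and 2.14% (bCAPs) of all genes. The 24 had a median of 0.44 against 0.01 over all genes.

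Of 56 other matrix genes, 4 were at least 2-fold higher in wCAPs and 12 in bCAPs, against 2.18% and 2.14% of all genes, with a median of -0.18. Postn (periostin), a matricellular protein of stretched tissue, had 1965 CPM in wCAPs and 732 in bCAPs, a log2 ratio of 1.42 (1.39 to 1.46), and Vcan (versican), a large hydrated proteoglycan, 750.2 CPM in wCAPs and 308 in bCAPs, a log2 ratio of 1.28 (1.22 to 1.35). On the brown side Mgp, the inhibitor of calcification, had 80.7 CPM in wCAPs and 457 in bCAPs, a log2 ratio of -2.50 (-2.59 to -2.42). Cthrc1, secreted at sites of matrix repair, had 68.7 CPM in wCAPs and 279.8 in bCAPs, a log2 ratio of -2.03 (-2.12 to -1.93), and the small proteoglycans Aspn and Ogn had -1.43 (-1.49 to -1.36) and -1.23 (-1.32 to -1.13). Lama3 had 3 UMIs in wCAPs and 90 in bCAPs, a log2 ratio of -6.15 (-8.45 to -4.55). Cemip, which binds and degrades hyaluronan, had 28.3 CPM in wCAPs and 160.4 in bCAPs, a log2 ratio of -2.50 (-2.65 to -2.36), and Has2, which makes it, -1.14 (-1.31 to -0.97). Fibronectin, decorin and Sparc were within 2-fold, Sparc at 4220.1 and 4172 CPM.

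Of 53 tested guidance and adhesion genes, 9 were at least 2-fold higher in wCAPs and 4 in bCAPs, beside 2.18% and 2.14% over all genes, with a median of 0.14 and 24 intervals above and 17 below 0. Tenm4 (teneurin 4), a synaptic adhesion protein, had 86.8 CPM in wCAPs and 6.70 in bCAPs, a log2 ratio of 3.69 (3.31 to 4.11). Opcml, a GPI-anchored adhesion protein, had 112 CPM in wCAPs and 11.1 in bCAPs, a log2 ratio of 3.33 (3.03 to 3.65), and the ephrin receptor Epha3 162 CPM in wCAPs and 28.9 in bCAPs, a log2 ratio of 2.49 (2.30 to 2.68). Ncam1 and the repellent Sema3a followed at 1.61 and 2.05 (1.78 to 2.34). The brown side held Cdh18, a cadherin, with 2.32 CPM in wCAPs and 37.9 in bCAPs, a log2 ratio of -4.03 (-4.51 to -3.58), the netrin receptor Unc5c at -1.62, Epha7 at -1.12 and its ligand Efna5 at -1.12. Epha3 and its relative Epha7 thus lay on opposite sides. In the list of matrix proteases and inhibitors, 28 genes were tested, with a median of -0.12 and 8 intervals above and 14 below 0. Of the 28, 5 were at least 2-fold higher in wCAPs and 1 in bCAPs, beside 2.18% and 2.14% of all genes. The plasminogen activator Plat was among the 5, at 1.49 (1.18 to 1.81). The inhibitor Serpine2 was the 1 higher in bCAPs, at -1.38 (-1.48 to -1.29).

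Secreted proteins of defence and metabolism also parted. The list of chemokines, cytokines and complement had 30 tested genes and a median of 0.34, with 16 intervals above and 9 below 0. Of the 30, 4 were at least 2-fold higher in wCAPs and 6 in bCAPs, beside 2.18% and 2.14% of all genes. Hp (haptoglobin), which binds free haemoglobin and is made by liver and fat, had 25.3 CPM in wCAPs and 308 in bCAPs, a log2 ratio of -3.61 (-3.75 to -3.47), with a UMI in 15.1% of wCAPs and 72.0% of bCAPs. Cp (ceruloplasmin), the copper ferroxidase, had 22.9 CPM in wCAPs and 132 in bCAPs, a log2 ratio of -2.53 (-2.69 to -2.37), and Ptx3, a soluble pattern receptor, 132 CPM in wCAPs and 359 in bCAPs, a log2 ratio of -1.44 (-1.52 to -1.37). Cst3 (cystatin C) was the most abundant of the 15 leading brown genes, at 424 and 1616 CPM. In wCAPs the acute-phase gene Saa3 had 14.6 and 2.44 CPM, and the adipokine-like C1qtnf7 29.9 and 6.95. Cyp7b1 (ENSMUSG00000039519, chromosome 3, 18071950 to 18243338, minus strand), the oxysterol hydroxylase that the study lists among CAP markers, had 262 CPM in wCAPs and 29.0 in bCAPs, a log2 ratio of 3.18 (2.99 to 3.37), and a UMI in 82.5% of wCAPs and 38.2% of bCAPs against 5.00% and 18.2% of glial cells. The chemokine Ccl9 had 2.01 CPM in wCAPs and 52.9 in bCAPs, a log2 ratio of -4.72 (-5.23 to -4.24). Myeloid cells held Ccl9 in 100.0% and 88.9% of cells, while the 8 myeloid markers summed to 7.17 CPM in wCAPs and 10.7 in bCAPs. Their part in the Ccl9 difference was not tested.

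Among the 15 largest differences each way, several genes belong to none of these groups. Kcnip4, which binds potassium channels, had 52.9 CPM in wCAPs and 5.85 in bCAPs, a log2 ratio of 3.18 (2.76 to 3.62). Ldb2, a partner of LIM domain factors, had 211 CPM in wCAPs and 36.8 in bCAPs, a log2 ratio of 2.52 (2.35 to 2.69), and Gas7, a growth arrest gene, a log2 ratio of 2.53 (2.25 to 2.83). The protocadherin Pcdh11x had a log2 ratio of 2.26 (2.07 to 2.46). Lgals3 (galectin 3), a sugar-binding protein that macrophages also make in quantity, had 72.2 CPM in wCAPs and 14.3 in bCAPs, a log2 ratio of 2.34 (2.07 to 2.62), and all myeloid cells of both libraries held a UMI of it. On the brown side 1500009L16Rik had a log2 ratio of -2.80. Sorbs2, an adaptor between actin and cell contacts, had 29.2 CPM in wCAPs and 122 in bCAPs, a log2 ratio of -2.06 (-2.21 to -1.91).

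Contractile genes were lower in wCAPs. Of 20 tested smooth muscle genes none was higher in wCAPs at 2-fold and 7 were in bCAPs, beside 2.18% and 2.14% of all genes. The median of the 20 was -0.83, and for 19 the interval lay below 0. Acta2 (smooth muscle actin) had 2352 CPM in wCAPs and 4198 in bCAPs, and Myl9 179 and 421. Lmod1, which nucleates actin filaments in smooth muscle, had 20.2 CPM in wCAPs and 61.3 in bCAPs, a log2 ratio of -1.60 (-1.80 to -1.41), and Ckb (brain creatine kinase) 44.3 CPM in wCAPs and 176 in bCAPs, a log2 ratio of -1.99 (-2.11 to -1.87). Other white precursors had 4251 CPM of Acta2 and 63.1 of Lmod1 and other brown ones 4657 and 57.4, and wCAPs stood below these and bCAPs. Reads of the actins Acta2 and Actg2 can be split between the copies. The 8 mural cell markers summed to 101 CPM in wCAPs and 204 in bCAPs, beside 342 in other white and 347 in other brown precursors. Actg2 was the largest part, at 49.1 CPM in wCAPs and 122 in bCAPs. Rgs5 stood at 0.619 and 8.53, whereas Kcnj8 (3.30 and 2.44) and Mcam (3.56 and 2.19) went the other way. The part of these markers in the contractile difference was not tested.

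Lists linked to stress had medians on both sides of 0. The 26 tested heat shock and stress proteins had a median of 0.28, with 17 intervals above and 6 below 0. Of the 26, 3 were at least 2-fold higher in wCAPs and 1 in bCAPs, beside 2.18% and 2.14% of all genes. Trib3 and Ddit3 are targets of the integrated stress response. Trib3 had 63.4 CPM in wCAPs and 18.5 in bCAPs, a log2 ratio of 1.77 (1.53 to 2.03), and Ddit3 had a log2 ratio of 1.01 (0.88 to 1.14). The small heat shock protein Hspb1 had 61.1 CPM in wCAPs and 193 in bCAPs, a log2 ratio of -1.66 (-1.77 to -1.55). Ero1l, an oxidase of the endoplasmic reticulum that hypoxia induces, had 109 CPM in wCAPs and 31.9 in bCAPs, a log2 ratio of 1.77 (1.58 to 1.96). The 23 tested p53 targets had a median of -0.42, with Cdkn1a at 146 and 219.9 CPM and 1 gene past 2-fold, Ptchd4. Cell cycle genes had medians of -0.13 for 39 S phase and -0.15 for 51 G2/M genes and 1 gene, Psrc1, past 2-fold, beside the lower share of bCAPs in G1 given above, whose part was not tested. Mki67 was at 116 and 117 CPM. The 23 tested genes of glycolysis and hypoxia had a median of 0.45. Of these, 2 were at least 2-fold higher in wCAPs and 1 in bCAPs, beside 2.18% and 2.14% of all genes. Mitochondrially encoded genes had none past 2-fold.

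Markers of other cell types were counted in both groups. Of 78 markers in 10 lists, 9 passed 10 CPM, and 26 had 0 UMIs in wCAPs and 29 in bCAPs. Summed glial markers stood at 25.8 and 24.0 CPM, most of it S100b. Myogenic markers stood at 0.309 and 5.61 CPM, most of the latter from Actc1, at 4.39 CPM. Chondrogenic markers summed to 87.5 and 115 CPM, most of it Sox9 at 84.0 and 96.4, while the cartilage genes Col2a1 (0.516 and 6.34 CPM), Comp (1.24 and 5.97) and Matn3 (1.34 and 3.78) were low and higher in bCAPs. The part of these markers in the matrix differences was not tested. Adipocyte markers summed to 91.0 and 309 CPM, most of it Fabp4. Endothelial markers stood at 31.0 and 25.8, and epithelial and erythroid ones under 1 CPM in both groups.

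The same depots were then compared in FAPLs and in early preadipocytes, which come from the same 2 libraries and therefore share whatever sets these libraries apart. Of the 201 genes higher in wCAPs, 65 were at least 2-fold higher in white FAPLs and 67 in white early preadipocytes, and of the 198 higher in bCAPs, 58 and 65 were so in the brown cells. Over all 9235 genes, 1.06% were at least 2-fold higher in white and 0.769% in brown FAPLs, and 1.02% in white and 0.899% in brown early preadipocytes. The median log2 ratio of the 201 genes was 1.44 in CAPs, 0.74 in FAPLs and 0.68 in early preadipocytes, and in the brown direction the 198 genes had 1.47, 0.59 and 0.74. Genes chosen for a large ratio in CAPs are bound to look smaller elsewhere, so these medians are a description. Hoxc10 was at or near 0 in each brown group, at 0 CPM in FAPLs and 0.0476 in early preadipocytes, and at 108 and 83.0 CPM in the white ones. Hoxb9, Hoxa5, Hp, Mecom and Cthrc1 also kept their side in both, with log2 ratios in FAPLs of 3.87, -2.53, -3.22, -2.85 and -1.70.

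**Figure D4:**
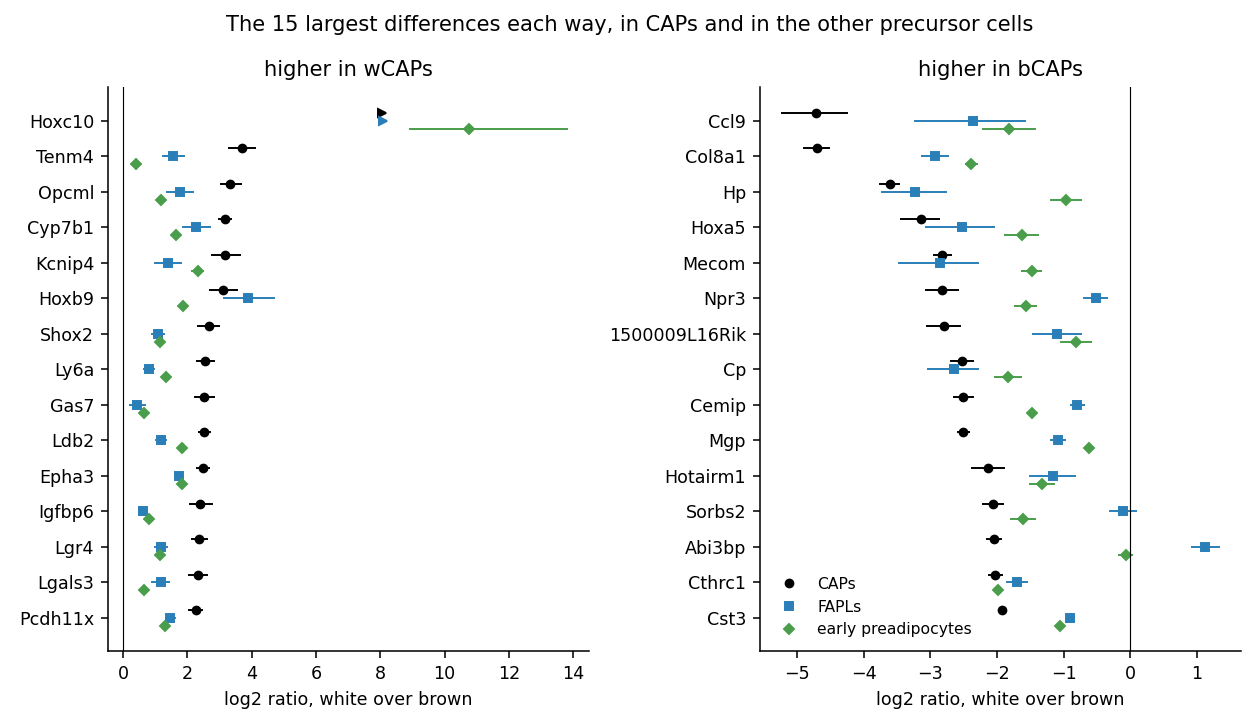
Log2 ratio of white over brown for the 15 genes with the largest difference each way in CAPs (black), beside FAPLs (blue squares) and early preadipocytes (green diamonds) of the same libraries, with counting intervals as bars and bounds as arrowheads. In FAPLs and early preadipocytes most genes lie nearer to 0 than in CAPs, and Abi3bp lies on the other side of 0 in FAPLs.

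The 10 genes each way whose ratio in CAPs lay farthest from that in FAPLs were Shox2, Snhg12, Gadd45a, Tenm4, Gas7, Ccl2, Ccl7, Ghr, Ly6a and Igfbp6 on the white side, and Lmod1, Mgp, Adamtsl3, Cemip, Sorbs2, Crabp1, Ckb, Npr3, Abi3bp and Col8a1 on the brown. For all of them the interval in CAPs also lay clear of that in early preadipocytes. They were picked for this gap, so their values are a description. Tenm4 had 3.69 (3.31 to 4.11) in CAPs, 1.57 (1.24 to 1.90) in FAPLs and 0.40 (0.29 to 0.51) in early preadipocytes. Gadd45a, a growth arrest and DNA damage gene, had 2.25, 0.59 and 0.51 in that order, and Snhg12, a host of small nucleolar RNAs, 1.48, 0.17 and -0.01. On the brown side Lmod1 had -1.60 in CAPs but 0.03 in FAPLs and 0.02 in early preadipocytes. Adamtsl3, a secreted ADAMTS-like matrix protein, had -2.01, -0.28 and -0.41. Npr3, the clearance receptor for natriuretic peptides, had -2.82, -0.52 and -1.57. Abi3bp, a matrix protein that binds cell surfaces, had 59.6 CPM in wCAPs and 245 in bCAPs, a log2 ratio of -2.04 (-2.15 to -1.93) in CAPs, but 83.5 and 38.3 CPM in white and brown FAPLs, a log2 ratio of 1.12 (0.92 to 1.33), and -0.07 (-0.17 to 0.02) in early preadipocytes. Ccl2 and Ccl7, neighbouring monocyte chemokines, had 1.16 and 0.52 in CAPs and -0.51 and -0.87 in FAPLs. The retinoic acid carrier Crabp1 had -1.55 in CAPs and 0.66 (0.30 to 1.02) in FAPLs.

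CAPs of each library were set against the other precursors of that library. Of the 201 genes higher in wCAPs, 16 (7.96%) were at least 2-fold above the other white precursors, whereas 53 (26.4%) were at least 2-fold below the other brown precursors in bCAPs. Of the 198 genes higher in bCAPs, 72 (36.4%) were at least 2-fold above the other brown precursors and 32 (16.2%) at least 2-fold below the other white ones in wCAPs. Over all tested genes these shares ran from 0.487% to 1.52%. For 131 and 95 of the genes, respectively, CAPs stayed within 2-fold of the other precursors in both libraries (65.2% and 48.0%), against 97.0% of all tested genes. The 201 and 198 genes were chosen on the same CAP counts, which by itself tends to move these shares away from those of all genes. All these shares are therefore a description. Cyp7b1 was high in wCAPs, with 1.69 over other white and 0.13 over other brown precursors. Dlk1 and Igfbp6 were low in bCAPs, with -1.67 and -2.54 against other brown precursors. Abi3bp, Fst and Ccl9 were high in bCAPs, with 2.29, 1.66 and 2.64. Col8a1 was low in wCAPs, with -2.05, and Hoxc10 differed little within the white cells, with 0.15.

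CAPs of both depots also shared genes that set them off from the other precursors. At 2-fold and 10 CPM, 56 genes (0.617% of 9075) were higher in wCAPs and 129 (1.42% of 9071) in bCAPs, and 20 were in both, 35.7% of the white and 15.5% of the brown list. The clusters were defined on these counts, so the lists describe them. Among the genes named here, Agt, Esr1, Fgf14 and Gprin3 were chosen after their values were seen. Sncaip, which binds synuclein, was 1.63 over other white and 1.77 over other brown precursors and nearly equal between depots, at 103 and 125 CPM. Agt, the angiotensin precursor that fat secretes, had 1.73 and 1.85, Esr1 (oestrogen receptor alpha) 1.26 and 1.29, and Stc1 (stanniocalcin) 1.26 and 2.38. Slc5a3, a myo-inositol carrier, had 1.17 and 1.43, and the phospholipase Plcb1 1.08 and 1.33. Hp, Mecom, Cp, Epha7, Fgf14, Gpm6b and Gprin3 belonged to both lists as well but were at least 2-fold higher in bCAPs than in wCAPs, and Esr1 was the reverse, with a log2 ratio of 1.16 (0.83 to 1.49). Pparg itself was 1.52 over other white and 0.85 over other brown precursors, where the brown ones held 51.5 CPM and the white ones 32.2.

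**Figure D5:**
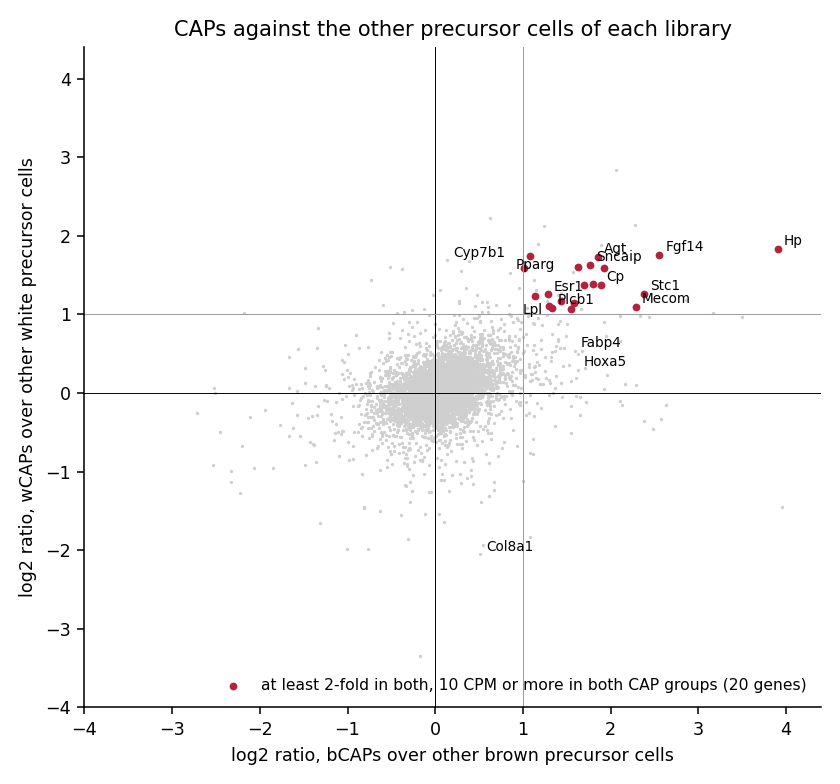
Log2 ratio of bCAPs over the other brown precursors (horizontal) against that of wCAPs over the other white precursors (vertical) for the tested genes, with the 20 genes at 2-fold in both and at 10 CPM or more in both CAP groups in red and 1 gene outside the axes. Hp lies farthest to the right among the red genes, Cyp7b1 lies high on the vertical axis and near 0 on the other, and Col8a1 lies near -2.05 on the vertical axis.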

How the data were processed

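Single-cell libraries (10x Genomics 3′ v3.1) of cultured white and brown stromal vascular cells, 1 per depot, were analysed. The deposited files hold raw UMI counts per gene and cell, which the authors made with Cell Ranger 7.0.1 on mm10. Cells were kept at 3900 to 7700 genes, 6000 to 60000 UMIs and 1.7 to 5% mitochondrial UMIs, which left 4407 of 5261 white and 6137 of 7009 brown cells. Doublets were removed only through these upper limits, and no doublet caller was run. Cluster names came from the study's tables, which name 1999 precursor cells per depot, only part of the precursors that the study clustered. Members and gene lists were chosen with earlier results of these data known.

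UMIs were summed per group, with exact Poisson intervals for levels, exact conditional binomial intervals for ratios and Clopper-Pearson intervals for shares of cells, all at 95% and for counting error only. Genes with 10 CPM or more in the higher group were compared, and 2-fold was the call. A count of 0, of UMIs or of cells, was set to a floor of 3 for folds and upper limits. Shares were also given after thinning each cell to 10000 UMIs, which left out no CAP. The genes named were members of the lists, the 15 largest differences each way at 50 CPM or more, ranked by the interval bound nearest 0, the 10 genes each way whose ratio in CAPs lay farthest from that in FAPLs, and the 10 genes highest over other precursors in both depots. For an alternative, names were carried to all filtered precursors by a vote of 15 nearest labelled neighbours (10 components, 2000 variable genes), which named held-out cells rightly in 91.4% of white and 86.2% of brown cases. Python 3.11.15, scanpy 1.11.5, scipy 1.17.1 and GENCODE vM21 positions were used, and the ratio code was tested on simulated data. Some genes of the lists are not reported here by name.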

Additional observations from a re-analysis of the deposited data

Results flagged for a closer look

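The depot ratio of Abi3bp differed in sign between 2 kinds of cell of the same libraries. Its log2 ratio of white over brown was -2.04 (-2.15 to -1.93) in CAPs and 1.12 (0.92 to 1.33) in FAPLs, both past 2-fold. The level was 59.6 CPM in wCAPs, 245 in bCAPs, 83.5 in white FAPLs and 38.3 in brown FAPLs. With 1 library per depot the difference between these ratios was not tested, and the intervals cover counting error only.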

How the results depend on the processing

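No paired analysis was possible because each depot gave 1 library, and for the same reason no replicate could be left out. The counts of genes at least 2-fold apart moved by over 1.5 times under 3 settings. In cells with a Y-linked UMI and no Xist (129 wCAPs and 50 bCAPs), 390 genes were higher in wCAPs, 164 of them among the 201. At 50 CPM or more the counts were 91 and 68, and at 1 CPM or more 606 and 665. Beside these 3 settings, asking for the whole 95% counting interval beyond 2-fold left 135 and 134 genes. The median absolute log2 ratio, 0.226 as reported, was 0.200 with names carried to all filtered precursors, 0.201 with carried-over CAPs only, 0.255 for CAPs with at least 80% of neighbours of their own name, 0.292 in cells with a Y-linked UMI and no Xist, 0.253 with each cell thinned to 10000 UMIs and 0.268 at 1 CPM or more. Of the 399 genes, 375 stayed at least 2-fold apart in cells with Xist and no Y-linked UMI, 323 in cells with the reverse, 320 in carried-over CAPs only and 361 in G1 cells. Of the 399 genes, 395 kept their direction in cells with a Y-linked UMI and no Xist and 398 in carried-over CAPs only. Among those of the 399 that the lists or the naming rule hold, Cpa6 alone changed sign, from 1.04 to -0.078 in cells with a Y-linked UMI and no Xist. All 30 genes with the largest differences stayed at least 2-fold apart in the 6 alternative sets of cells, with Sorbs2 nearest to 2-fold, from -2.62 to -1.37, and Col8a1 from -5.30 to -4.29. The cause of these shifts was not tested. The single library per depot leaves the spread between cultures unmeasured.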
